A study of Mus musculus with 15 samples.

Results

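Actin transcripts that build and position the meiotic spindle were followed through oocyte maturation in single mouse oocytes. The 10 genes were chosen by name and matched to the Ensembl gene IDs of the count tables: Fmn2, Spire1, Spire2, Actr2, Actr3, Wasl, Cfl1, Actb, Actg1 and Cdc42. All 10 were found among the 28785 genes with a count in any oocyte, and all 10 passed the minimum of 5 CPM (counts scaled to a common total per library) in the higher stage that 10410 genes passed. The MII group held 6 mature eggs at the metaphase arrest of the second meiotic division, and the GV group held 9 fully grown oocytes with an intact germinal vesicle, the large nucleus of the prophase arrest. Both groups came from female mice, with no strain, genotype or individual mouse named in the labels, which give an age of about 6 to 8 weeks for the donors of GV oocytes. Donors of MII eggs were primed with the gonadotropin of pregnant mare serum (7 IU) and given the human chorionic hormone (7 IU) some 48 h after it. Eggs were recovered a further 20 h on and stripped of cumulus cells with hyaluronidase at 300 IU/mL. Donors of GV oocytes received the same dose of the serum gonadotropin alone, 44 h before collection. Each library was 1 oocyte prepared with MATQ-seq, a total-RNA single-cell method, so both stages carry the hormone treatment and neither is an unstimulated ovary.

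In a mouse oocyte the spindle has no centrosomes to anchor it and is moved to the cortex by an actin mesh in the cytoplasm. The formin Fmn2 and the Spire proteins assemble that mesh together, while the Arp2/3 complex, switched on by N-WASP and the small GTPase Cdc42, builds the branched actin of the cortical cap that later holds the spindle in place. Cofilin cuts filaments and returns actin monomers, and beta- and gamma-actin are the monomers themselves. All of these messages in an egg are inherited from growth, since transcription is silent from the fully grown GV stage through MII.

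Total counts were 808641 to 2348281 per MII oocyte and 3687610 to 7103063 per GV oocyte. A single feature without a symbol held 15.7% to 61.2% of MII counts, 3.43% to 11.2% of counts in GV7 to GV9 and none in GV1 to GV6, and it was left out of the totals behind every CPM. Per the file headers, the GV tables fall into 2 sets, GV1 to GV6 and GV7 to GV9, and the MII tables form another, so the stage and the kind of table cannot be told apart. MII was therefore set against all GV oocytes together and against each GV set alone. All 13 oocyte markers had counts at both stages and summed to 8192 to 17848 CPM in MII and 7420 to 29627 CPM in GV oocytes. The 15 cumulus and granulosa markers summed to 37.1 to 127 CPM in MII oocytes, where 7 of them were at 0, and to 101 to 345 CPM in GV oocytes, where 1 was at 0. With no mouse named, a stage is treated as 1 sample of several cells. Differences are accordingly given by size beside the spread between oocytes, with no p-value.

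As a group the 10 genes were centred on the transcriptome. The log2 ratio of summed CPM, MII over GV, was taken relative to that of the median measured gene, which was −0.29. On this scale 5 genes lay above the median gene and 5 below, the median of the 10 was 0.08, and the range ran from −0.89 for Actg1 to 1.23 for Cfl1. Cfl1 and Spire2 were at least 2-fold higher in MII oocytes, 2 of 10 genes against 12.9% of all measured genes. None was at least 2-fold lower, against 15.8% of all measured genes. The median size of the ratio, whatever its sign, was 0.48 for these genes and 0.58 for all measured genes. Each of the 10 ratios was smaller than the gene's spread, which is the root of the summed squares of both stages' SDs of relative level. That spread is between single oocytes and is not the error of a stage mean. The share of all measured genes within their spread was not taken, so this count does not set the 10 genes apart. None of the 10 had MII and GV levels that did not overlap, against 2.47% of all measured genes. All ratios compare shares of the counted RNA, so they carry no information on the amount of RNA per oocyte. The plot of CPM by oocyte shows this overlap gene by gene.

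**Figure D1:**
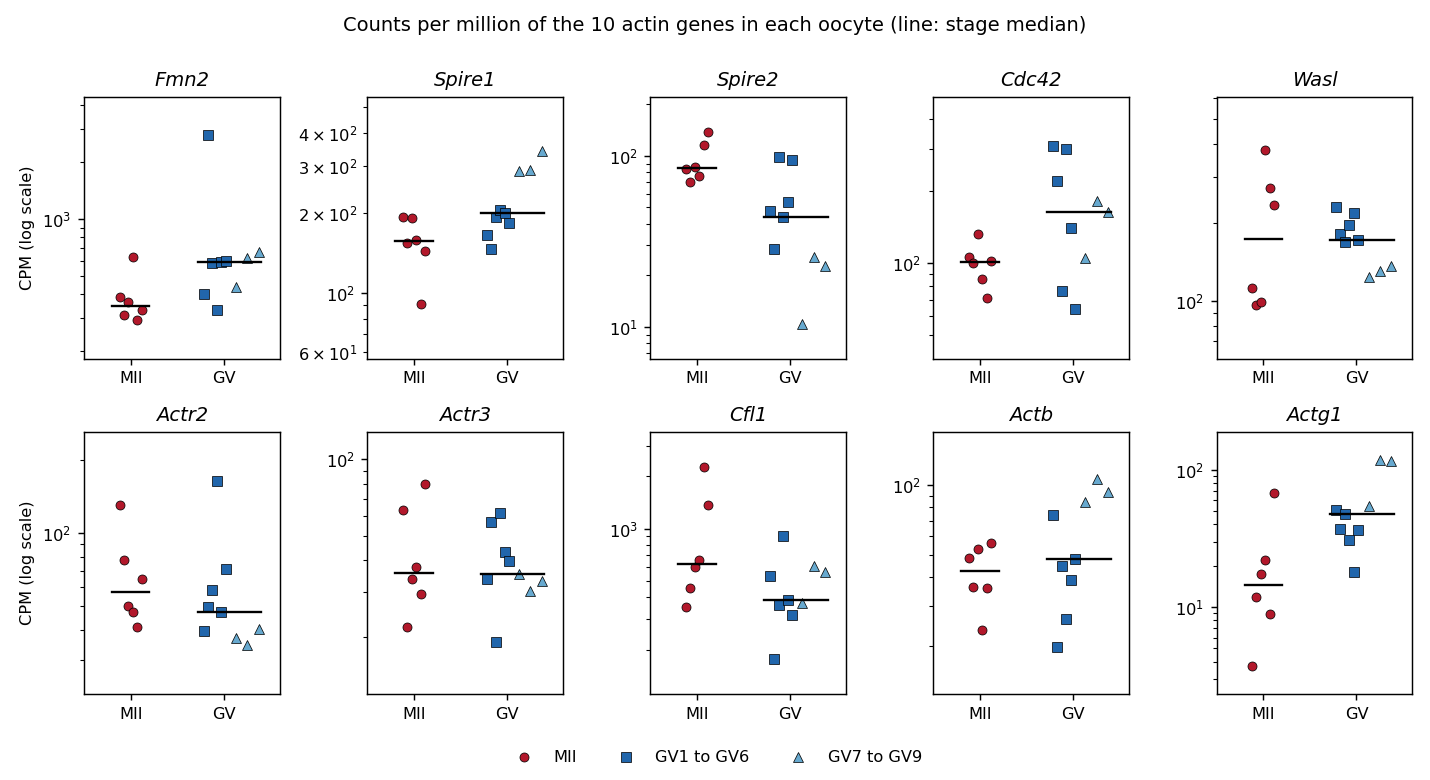
CPM of each of the 10 genes in each oocyte, on a log axis of its own, with MII oocytes left of GV oocytes and a line at the stage median. Fmn2 has a single GV oocyte at 2763 CPM, the 6 MII oocytes of Spire2 lie at 70.4 CPM or more, and triangles (GV7 to GV9) stand apart from squares (GV1 to GV6) for Spire1, Spire2, Wasl, Actb and Actg1.

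Fmn2, the formin that nucleates the cytoplasmic mesh and whose loss in mice leaves the spindle in the oocyte centre, had the highest CPM of the 5 nucleator genes among the 10 (Fmn2, Spire1, Spire2, Actr2 and Actr3) at both stages. Its lowest, median and highest values were 293, 347 and 628 CPM in MII oocytes, against 329, 594 and 2763 CPM in GV oocytes. The highest MII value was in MII4 and the highest GV value in GV2, and the groups overlapped. Summed over oocytes Fmn2 had 397 CPM in MII and 748 CPM in GV, with a ratio relative to the median gene of −0.63 and a spread of 1.05. GV2 alone held 36.6% of the GV counts of Fmn2 and had 4.15 times the CPM of the next highest oocyte. Without GV2 the ratio was −0.13. The other 8 GV oocytes averaged 529 ± 122 CPM (SD, n = 8), against 386 ± 124 CPM in MII oocytes (SD, n = 6). Among the 10410 measured genes 15, or 0.144%, had a GV2 value at least 4 times that of every other GV oocyte, and Fmn2 ranked 14 by this excess. GV2 was looked at because of its Fmn2 value. The share therefore does not tell how often a gene has 1 GV oocyte this far above the rest. The 4264183 counts of GV2 lay within the GV range of totals. GV2 had the lowest oocyte-marker sum of the 15 oocytes, 7420 CPM. Among GV oocytes it had the highest sums of theca and stroma markers, 33.5 CPM, of blood and immune markers, 36.6 CPM, and of oviduct markers, 12.0 CPM. Its cumulus and granulosa sum was 132 CPM, inside the GV range, and the part of any of these in the Fmn2 value was not tested.

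The genes whose relative level followed Fmn2 most closely over the 15 oocytes, among 4985 protein-coding genes with at least 20 CPM at both stages, were Melk, Atf7ip, D6Ertd527e, Sin3a and Stk32b. Melk encodes a maternal embryonic leucine zipper kinase, and Pearson's r with Fmn2 was 0.88 over 15 oocytes and 0.78 over the 14 other than GV2. Atf7ip, a partner of a histone H3 methyltransferase, had r of 0.85 with GV2 and 0.67 without it. Sin3a, the scaffold of a histone deacetylase complex, had r of 0.80 with GV2 and 0.66 without it. For D6Ertd527e r was 0.82 with GV2 and 0.57 without it, and for the kinase gene Stk32b it was 0.79 with GV2 and 0.61 without it. These correlations share library, stage and depth, and their size rests in part on GV2. The genes were also picked as the highest of 4985, and how high r reaches by chance among so many was not tested. The values without GV2 are for the same picked genes, so they are no separate check. The ranking therefore does not show that any of these genes is tied to Fmn2.

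Spire1 and Spire2 encode the WH2-domain nucleators that work with Fmn2. Spire1 had 90.9, 156 and 192 CPM in MII oocytes (lowest, median and highest), against 147, 200 and 341 CPM in GV oocytes. Its ratio was −0.18 with a spread of 0.54, so its difference between stages was close to that of the median gene. GV7, GV8 and GV9 had 287, 289 and 341 CPM, above every other oocyte of either stage. Against GV1 to GV6, which had 147 to 206 CPM, the ratio of Spire1 was 0.01, and against GV7 to GV9 it was −0.75.

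Spire2 showed the opposite arrangement. It had 70.4, 84.7 and 138 CPM in MII oocytes, against 10.5, 44.0 and 97.8 CPM in GV oocytes (lowest, median and highest). The 4 lowest MII values lay within the GV range and the MII5 and MII6 values of 115 and 138 CPM lay above it. Summed CPM were 92.1 in MII and 52.6 in GV, and the ratio of 1.10 was nearly the size of its spread, which also rounds to 1.10. The size depended on the GV set. Against GV1 to GV6 the ratio was 0.78, and against GV7 to GV9, with 10.5, 25.6 and 22.6 CPM, it was 2.47. Without MII6 the ratio against all GV oocytes was 0.97, and without MII5 it was 1.02.

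The 2 Spire genes can be set side by side per kilobase of exon. Spire2 exceeded Spire1 in 6 of 6 MII oocytes, where it was 1.35 to 3.92 times as high. It exceeded Spire1 in 2 of 9 GV oocytes, with a median of 0.662 times the Spire1 value. Neither of these was among GV7 to GV9, where Spire2 was at most 0.274 times as high. Both genes come from the same libraries, so this ratio within an oocyte does not depend on library totals, although it still differs between the GV sets. The ratio does depend on the exon lengths used, 7766 bases for Spire1 and 2510 for Spire2, each merged over all annotated transcripts. In CPM, without length, Spire1 was the higher in every MII oocyte but MII5. Which transcripts the oocytes held was not tested.

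Actr2 and Actr3 encode Arp2 and Arp3, the actin-like subunits that start the branch in the Arp2/3 complex. Actr2 had 41.0, 57.4 and 131 CPM in MII oocytes, against 34.7, 47.2 and 164 CPM in GV oocytes (lowest, median and highest). Its ratio was 0.31 with a spread of 0.84, and became −0.65 when CPM were taken from totals with the unnamed feature and not centred. GV4 held the highest value of all. GV7, GV8 and GV9 had 36.7, 34.7 and 40.3 CPM, below every MII oocyte, and against them the ratio was 0.99. Actr3 had 21.9, 35.7 and 80.1 CPM in MII oocytes, against 19.0, 35.2 and 61.4 CPM in GV oocytes, nearly the same middle and range. Its ratio of 0.38, with a spread of 0.75, became −0.58 from uncentred totals with the feature. The 2 pseudogenes nearly identical to Actr3 had counts equal to 6.94% of the gene's own in MII and 4.08% in GV. Per kilobase of exon the 2 subunits were close, with Actr2 a median of 1.28 times Actr3 in MII oocytes and 1.04 times in GV oocytes.

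Cdc42, the GTPase that marks the cortex over the spindle and recruits N-WASP, had 71.7, 101 and 132 CPM in MII oocytes, against 64.1, 163 and 309 CPM in GV oocytes (lowest, median and highest). All 6 MII values fell inside the GV range, and the GV oocytes were the more scattered, with 99.8 ± 20.3 CPM in MII (SD, n = 6) and 173 ± 88.9 CPM in GV (SD, n = 9). The ratio was −0.47, with a spread of 0.69, with −0.56 when GV1 to GV6 alone stood for the GV stage and −0.35 when GV7 to GV9 did. Wasl, which encodes N-WASP, the link between Cdc42 and the Arp2/3 complex, had 96.3, 173 and 381 CPM in MII oocytes, against 124, 172 and 231 CPM in GV oocytes. In CPM all 6 MII eggs fell outside the GV range, on either side of it. MII1, MII2 and MII3 were at 112, 96.3 and 99.3 CPM and MII4, MII5 and MII6 at 381, 273 and 235 CPM. In relative level MII1 and MII3, at 2.16 and 2.21, lay within the GV range of 2.15 to 3.02. The ratio of Wasl, 0.49 with a spread of 0.99, was 0.07 without MII4 and −0.47 from uncentred totals with the feature.

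Cfl1 encodes cofilin, the severing factor of non-muscle cells, and had the highest ratio of the 10 genes. It had 351, 625 and 2254 CPM in MII oocytes, against 178, 389 and 909 CPM in GV oocytes (lowest, median and highest). In CPM only MII5 and MII6, at 2254 and 1360, lay above the GV range. In relative level MII4, at 4.99, also lay above the highest GV value of 4.88. Summed CPM were 891 in MII and 464 in GV. The ratio was 1.23 with a spread of 1.23, with 1.24 for GV1 to GV6 as the GV stage and 1.02 for GV7 to GV9. Without MII5 it was 0.83, and without both MII5 and MII6 it was 0.52. These are also the oocytes with the largest share of the unnamed feature, 52.6% and 61.2%, and the part of that feature in the Cfl1 value was not tested. A pseudogene nearly identical to Cfl1 had counts equal to 0.737% of the gene's own in MII and 0.590% in GV. The protein-coding gene Arcn1 also matched Cfl1 at 95% identity or more over at least 100 bases, and its counts are not given here. Snx32, which overlaps Cfl1 on the opposite strand, had 5 counts in MII and 109 in GV, against 5293 and 19991 for Cfl1 itself.

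**Figure D2:**
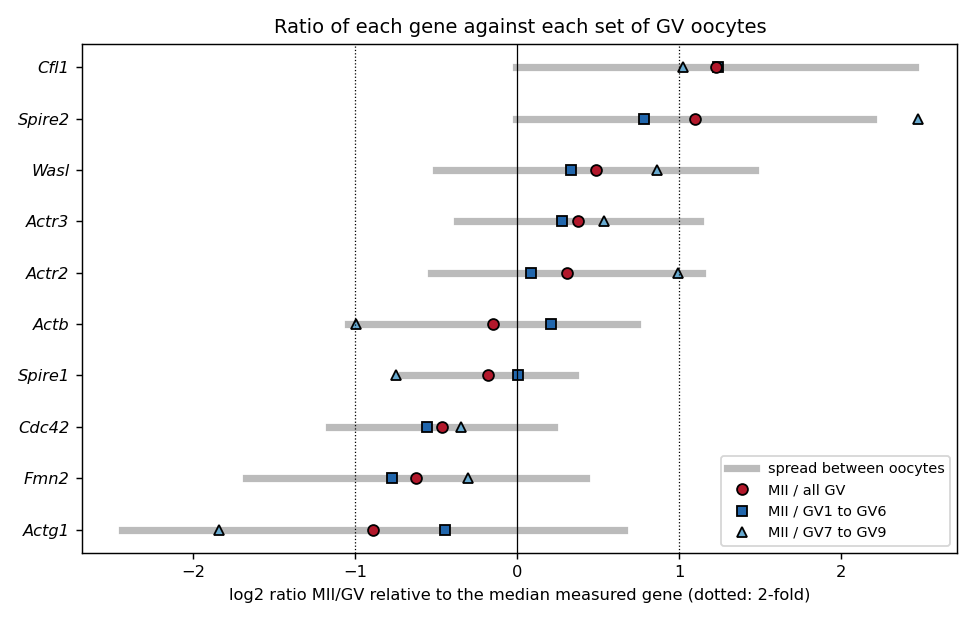
Log2 ratio of MII over GV relative to the median measured gene, for all GV oocytes (circles, with a grey bar of 1 spread between oocytes on either side), for GV1 to GV6 (squares) and for GV7 to GV9 (triangles). The bars of all 10 genes reach 0, and the share of all measured genes for which this holds was not taken. Squares and triangles are widest apart for Spire2, at 0.78 and 2.47.

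The actin messages differed in how many counts were held by loci nearly identical to them. Actb, the beta-actin gene, had 23.5, 42.3 and 56.0 CPM in MII oocytes, against 19.9, 47.8 and 106 CPM in GV oocytes (lowest, median and highest). Its ratio over all GV oocytes was −0.15 with a spread of 0.89, but stood at 0.21 with GV1 to GV6 as the GV stage and at −0.99 with GV7 to GV9. GV7, GV8 and GV9 had 84.2, 106 and 93.4 CPM, higher than any MII egg and any other GV oocyte. No annotated transcript matched that of Actb at 95% identity or more over at least 100 bases, and its longest match to Actg1 was 87.8% identical.

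Actg1, the gamma-actin gene, had the lowest ratio of the 10. It had 3.73, 14.5 and 68.1 CPM in MII oocytes, against 18.1, 47.6 and 118 CPM in GV oocytes (lowest, median and highest). In CPM the groups overlapped through MII4 at 22.0 and MII6 at 68.1, and through GV5 at 18.1. In relative level MII3, at −0.25, also lay above GV5, at −0.49. The ratio was −0.89 with a spread of 1.55. It was −1.53 without MII6, and stood at −0.44 with GV1 to GV6 as the GV stage and at −1.84 with GV7 to GV9. The 6 MII eggs together gave 134 counts of the gene. Its exact Poisson 95% interval, 18.9 to 26.7 CPM in MII, was the widest of the 10 genes relative to its value.

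Actg1 also has 6 annotated pseudogenes with at least 95% identity over at least 100 bases, and they had counts equal to 56.7% of Actg1's own in MII and 68.6% in GV. Gm12715, a processed copy on chromosome 4, differed from the 1128 coding bases of Actg1 at 4 positions and received 71 counts in MII and 942 in GV. Gm8399, a processed copy on chromosome 13, differed at 8 of 1117 aligned bases and received 5 counts in MII and 479 in GV. Shown here are coding bases 749 to 868 of Actg1 (chromosome 11, minus strand), the 120-base stretch with the most differences, and the matching bases of both copies, from GENCODE M21 transcripts of GRCm38. A read within the lower-case letters of the Actg1 line cannot tell the 3 loci apart. Capitals in a pseudogene mark bases that differ from Actg1, and capitals in Actg1 mark bases that differ in at least 1 of the copies.
Actg1: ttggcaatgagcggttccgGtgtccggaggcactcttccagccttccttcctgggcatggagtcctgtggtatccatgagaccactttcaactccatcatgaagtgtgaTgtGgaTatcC
Gm12715: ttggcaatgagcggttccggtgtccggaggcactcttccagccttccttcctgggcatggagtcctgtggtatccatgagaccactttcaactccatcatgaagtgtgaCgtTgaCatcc
Gm8399: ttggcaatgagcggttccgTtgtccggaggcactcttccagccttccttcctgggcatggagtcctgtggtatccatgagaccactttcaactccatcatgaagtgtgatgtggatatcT

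The counts of the copies did not stand in 1 ratio to those of Actg1. Gm8399 had 0 to 2.20 CPM in MII oocytes, against 0.282 to 2.09 CPM in GV1 to GV6 and 17.9 to 63.6 CPM in GV7 to GV9. Gm12715 had 5.48 to 21.2 CPM in MII oocytes, against 4.57 to 24.6 CPM in GV1 to GV6 and 22.7 to 63.8 CPM in GV7 to GV9. The 6 pseudogenes held 43.9% to 49.1% of the summed count of Actg1 and its copies in GV7 to GV9, and 25.2% to 36.2% in GV1 to GV6. Added together, Actg1 and its copies had 14.9, 25.1 and 80.1 CPM in MII oocytes, against 24.2, 72.8 and 230 CPM in GV oocytes (lowest, median and highest). The ratio of this sum was −0.996 over all GV oocytes, −0.36 with GV1 to GV6 as the GV stage and −2.14 with GV7 to GV9. Every MII egg was then below 96.4 CPM, the lowest of GV7 to GV9. The handling of reads that fit more than 1 locus is not stated in the labels or the file headers.

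**Figure D3:**
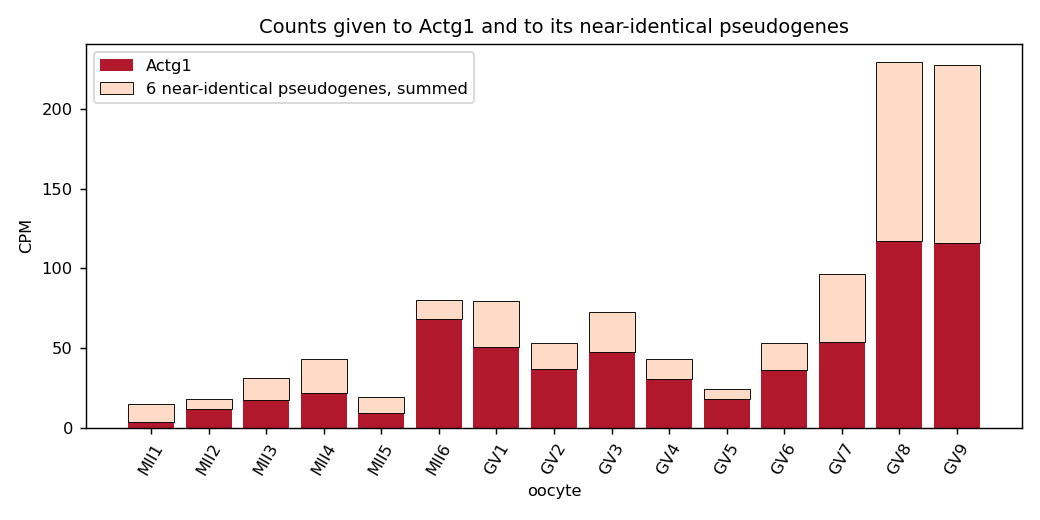
CPM given to Actg1 (dark) and, stacked on it, the summed CPM of its 6 near-identical pseudogenes (light), for each oocyte. MII1 to MII5 reach at most 43.1 CPM together and MII6 reaches 80.1 CPM, while GV8 and GV9 reach 230 and 228 CPM with close to equal parts from the gene and its copies.

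Per kilobase of exon, Cfl1 was the most abundant of the 10 messages at both stages, with a median of 220 CPM per kb in MII and 137 CPM per kb in GV. Fmn2 came next, with medians of 43.6 CPM per kb in MII and 74.7 CPM per kb in GV, followed by Cdc42 with 34.1 in MII and 55.0 in GV. In MII the order then ran Spire2, Wasl, Spire1, Actb, Actr2, Actr3 and Actg1, with medians from 33.8 down to 5.46 CPM per kb. In GV it ran Wasl, Spire1, Actg1, Actb, Spire2, Actr2 and Actr3, with medians from 27.8 down to 7.60 CPM per kb. Cfl1 and Fmn2 in MII were the only neighbours in either order whose ranges over oocytes did not overlap. The message for cofilin exceeded that for beta-actin in every oocyte, by a median of 17.4 times per kb in MII and 6.74 times in GV. Actb exceeded Actg1 per kb in 5 of 6 MII oocytes and in 4 of 9 GV oocytes. Both the order and this comparison count Actg1 without its near-identical pseudogenes. Those copies held 36.2% of the summed count of gene and copies in MII and 40.7% in GV. The place of Actg1 therefore depends on where shared reads were counted.

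**Figure D4:**
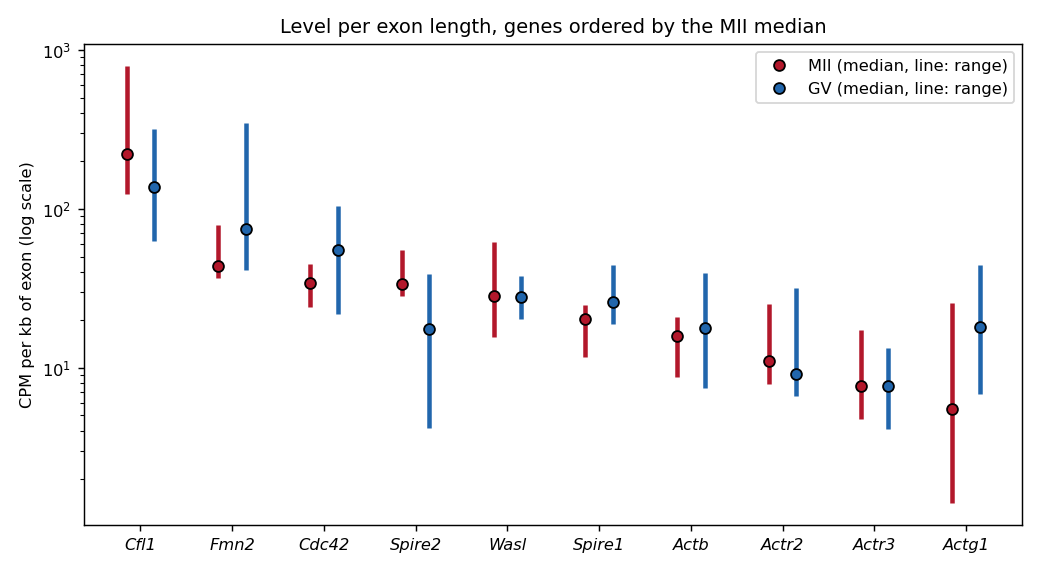
Median (points) and range (lines) of CPM per kilobase of exon over the oocytes of MII (left of each pair) and GV, on a log axis, with genes in the order of the MII median. Cfl1 is at 220 CPM per kb in MII and 137 in GV, and Spire2 and Actg1 hold different places in the 2 stages. Actg1 is drawn without its near-identical pseudogenes.

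The 2 sets of GV oocytes also differed from each other. For GV7 to GV9 over GV1 to GV6 the median size of the ratio was 0.65 for the 10 genes and 0.75 for all measured genes. Spire2 was at least 2-fold lower, in GV7 to GV9, 1 of 10 genes against 20.2% of all measured genes, with a ratio of −1.65. Actb and Actg1 were at least 2-fold higher, 2 of 10 against 18.1%, with ratios of 1.24 and 1.43. Relative levels in the 2 GV sets did not overlap for 5 of the 10 genes, against 16.8% of all measured genes: Spire1, Actb and Actg1 were the higher in GV7 to GV9 and Spire2 and Wasl the lower. Between MII and GV7 to GV9 the levels of Spire2 and Actr2 (higher in MII) and of Spire1 and Actb (lower in MII) did not overlap, 4 of 10 against 20.6% of all measured genes. Between MII and GV1 to GV6 none was apart, against 3.75% of all measured genes. At the 2-fold mark, Cfl1 alone was higher in MII than in GV1 to GV6, 1 of 10 against 13.3%, and none was lower, against 16.6%. Against GV7 to GV9, Spire2 and Cfl1 were at least 2-fold higher, 2 of 10 against 21.5%, and Actg1 was at least 2-fold lower, 1 of 10 against 21.1%. These comparisons share oocytes with one another. The cumulus and granulosa sum was 126 to 146 CPM in GV7 to GV9 and 101 to 345 CPM in GV1 to GV6, and the highest of these sums was in GV1.

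Pairs of the 10 genes showed at most moderate correlation of relative level over the 15 oocytes. The highest Pearson's r was 0.56 between Actb and Spire1, both high in GV7 to GV9, and the lowest was −0.63 between Actg1 and Actr2. Spire1 and Spire2 had r of −0.53. Without GV2 the highest was 0.58, between Cfl1 and Wasl, and the lowest −0.65, between Actb and Actr2. Fmn2 and Spire1 had r of 0.08 with GV2 and 0.53 without it, and Fmn2 and Cdc42 had 0.06 with GV2 and −0.56 without it. These values share stage and file set.

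The wider actin machinery, 88 further genes in 7 lists, is given for context. Of 68 that were measured, 9 (13.2%) lay 2-fold or more below GV in MII, against 15.8% of all measured genes, and 9 (13.2%) lay 2-fold or more above, against 12.9%. The median ratio was 0.16. The counts of each list that follow are to be set beside the same 15.8% and 12.9%. MII and GV levels were apart for 2 of the 68, Abi1 and Tmsb10, both higher in MII, as were 1.62% of all measured genes. Among the other subunits of the Arp2/3 complex 1 of 6 was lower and 1 higher, with a median of −0.16. Arpc2, the most abundant per kilobase, had a ratio of 0.51, Arpc1b a ratio of 1.10 and Arpc5l a ratio of −1.10. Their spreads were larger, at 1.19, 1.34 and 1.18. Arpc1b was at 1.65 against GV1 to GV6 and at 0.04 against GV7 to GV9.

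Nucleation-promoting factors, which switch the Arp2/3 complex on, had 2 of 16 lower and 2 higher and a median of 0.26. Abi1, a subunit of the WAVE complex that drives branched actin at the cortex, had 956 CPM in MII and 306 CPM in GV, a ratio of 1.93. Its 6 MII values ran from 456 to 1613 CPM and its 9 GV values from 211 to 357 CPM. Nck2, an adaptor to N-WASP, had 1.35 CPM in MII and 7.16 CPM in GV, a ratio of −2.04 that rests on 8 MII counts. Nck2 passed the minimum of 5 CPM only through GV, the stage where it is higher. Against Wasl at 0.49, the WAVE subunit Abi1 was the activator with the highest ratio.

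The other formins had the highest list median, 0.93, with 3 of 8 at least 2-fold higher in MII, against 12.9% of all measured genes, and none lower, against 15.8%. Fmn1, named after its values were seen, was at the 2-fold mark itself within rounding. Fmnl3, a formin of the diaphanous-related group, had 2038 CPM in MII and 1326 CPM in GV and a ratio of 0.91. Per kilobase of exon its summed level was 406 CPM per kb in MII and 264 in GV, against 49.9 and 94.0 for Fmn2. Daam1 had 608 CPM in MII and 280 CPM in GV, with a ratio of 1.41. Fmnl2 was the lowest of the 8 measured at −0.12, against −0.63 for Fmn2, or −0.13 for Fmn2 without GV2. The list held 13 formins, and those below 5 CPM at both stages were not ranked.

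Genes of monomer supply and filament turnover, the company of Cfl1, had 3 of 17 lower, against 15.8% of all measured genes, and 1 higher, against 12.9%, with a median of 0.02. Tmsb10, a thymosin that holds actin monomers, had 413 CPM in MII and 83.9 CPM in GV, a ratio of 2.58 and the highest of the 68 genes. Its values were 253 to 751 CPM in MII oocytes and 18.1 to 249 CPM in GV oocytes. Dstn, the destrin relative of cofilin, had 2.02 CPM in MII and 11.5 CPM in GV, with a ratio of −2.17 on 12 MII counts. Dstn passed the minimum of 5 CPM only through GV, the stage where it is higher, so no contrast with Cfl1 is drawn. Among capping and filament-binding genes 2 of 12 were lower and 2 higher, with a median of −0.22. Rdx, the membrane linker radixin, was the most abundant of them per kilobase at a ratio of −0.22, and Capza1 of the capping protein had the highest ratio at 1.13. The crosslinker Flna had the lowest at −2.58, which was also the lowest of the 68 genes. It rests on 18 MII counts, with a spread of 1.74, and Flna passed the minimum of 5 CPM only through GV. Flna values were 0 to 7.77 CPM in MII oocytes and 6.10 to 80.9 CPM in GV oocytes, which overlapped. Of 4 other actin isoforms only Actg2 was measured, at 8.42 CPM in MII and 7.30 CPM in GV.

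Myosins and the vesicle genes that carry Fmn2-dependent actin had 1 of 8 lower and none higher, with a median of 0.18. Myo5b, a vesicle motor, was the most abundant of these at a ratio of 0.46, Myl12a was highest at 0.65, and Myh10 lowest at −1.20.

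**Figure D5:**
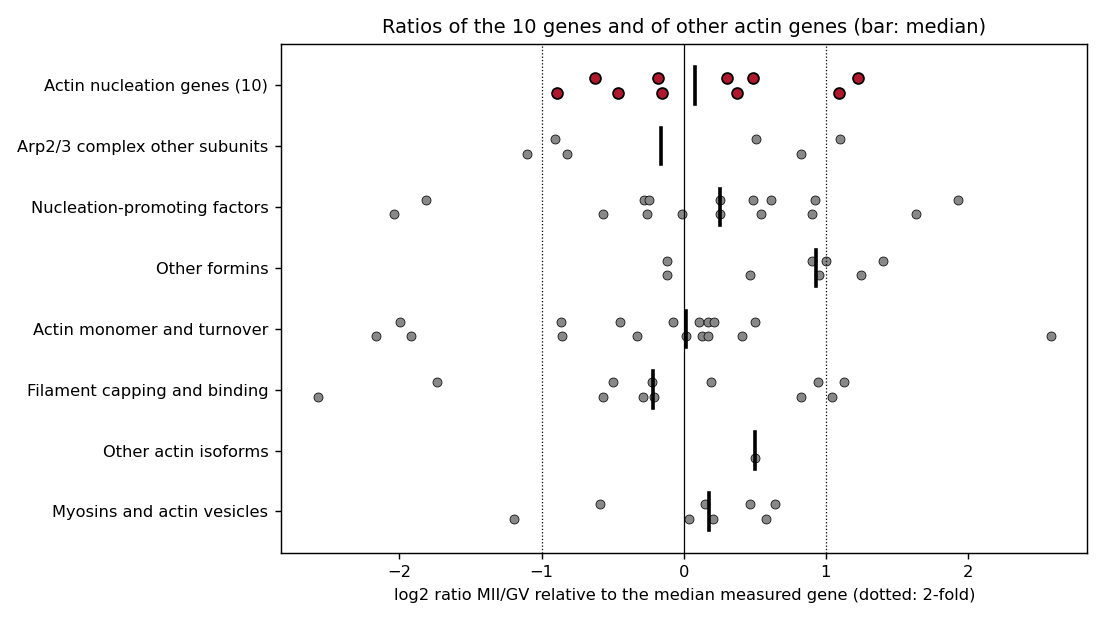
Log2 ratio of MII over GV relative to the median measured gene for the 10 genes (top, red) and for the measured genes of 7 lists of other actin genes (grey), with a bar at each median and dotted lines at 2-fold. The 10 genes lie between −0.89 and 1.23 with a median of 0.08, and the other formins have the highest median of a list with more than 1 gene, 0.93.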

How the data were processed

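Transcripts of 6 MII and 9 GV oocytes, 1 oocyte per library, were measured with MATQ-seq (28 PCR cycles, cDNA sheared to 300 bp, per the labels' protocols). The authors deposited 1 table of whole-number counts per oocyte, keyed by Ensembl gene ID. STAR 2.7.10a, cutadapt 4.0 and GRCm39 are named, per the submitters' processing notes. Not given in the sources used here are the counting tool, the gene models, whether strand was used and where multiply mapped reads went, so genes that overlap or have near-identical copies can draw on the same reads. An unlisted gene was taken as 0.

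Groups follow the labelled stage. The GV tables have 2 kinds of column header, 1 for GV1 to GV6 and another for GV7 to GV9, whose meaning no source here states. Among pairs of oocytes of 1 stage the lowest chi-square per degree of freedom over genes was 8.06, and every pair differed by more than sampling noise.

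Symbols, strands and exon lengths came from GENCODE M21 (GRCm38), and 28402 of 28785 gene IDs (98.7%) had a symbol. An exon length merged all annotated exons of a gene. CPM used totals without the unnamed feature. The log2 ratio of MII over GV was taken on counts summed over oocytes, with 0.5 added, minus that of the median gene measured at 5 CPM or more. Relative level was log2(CPM + 1) of the gene less the value of the median measured gene in the same oocyte. Near-identical transcripts were found with BLASTN at 95% identity over 100 bases. Summed counts have exact Poisson 95% intervals, which reached at most 18.4% above or below the value in MII and 4.92% in GV for the 10 genes. PCR reads are not independent molecules, so these intervals cover counting error only.

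The 10 genes, the lists and the rules were chosen with earlier results of these data known. Named were the 10 genes, for each list the most abundant gene per kilobase, the lowest ratio and the highest, and the 5 genes most like Fmn2. Another list chosen with them is not reported here. Markers of oocytes, cumulus and granulosa cells, theca and stroma, blood and immune cells, and oviduct epithelium were summed. Theca and stroma summed to at most 51.2 CPM in MII and 33.5 CPM in GV, blood and immune markers to 16.6 and 36.6 CPM, and oviduct markers to 2.35 and 12.0 CPM. Their most abundant genes were Zp3, Nr5a2, Col1a1, Laptm5 and Pax8. Alternatives were totals with the feature, no centring, edgeR 4.0.16 TMM and DESeq2 1.42.0 median-of-ratios factors, means or medians of CPM, thinning to 536101 counts, other filters, each GV set and leaving out oocytes. Leaving out MII5 with MII6 and adding the pseudogenes to Actg1 were chosen after seeing the data. Python 3.11.15, numpy 2.4.6, pandas 2.3.3 and R 4.3.3 were used. The ratio and fold calls were run on simulated counts with known changes, drawn around the summed GV profile with independent noise per gene. That simulation held no difference between GV sets and no outlying oocyte, so it does not show how the calls perform on these data.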

Additional observations from a re-analysis of the deposited data

Results flagged for a closer look

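In groups of this size a check of the highest or lowest oocyte against the rest picks out about 1 in 20 groups by chance, and 30 groups were checked, each of the 10 genes among the MII, the GV and the GV1 to GV6 oocytes. It picked out 3 oocytes, given here as relative level, log2(CPM + 1) less the value of the median measured gene in the same oocyte. Fmn2 in MII4 stood at 4.93, with the other 5 MII oocytes between 3.78 and 4.07, and had 628 CPM. Fmn2 in GV2 stood at 6.81, with the other 8 GV oocytes between 3.42 and 4.75, and had 2763 CPM. Cdc42 in MII3 stood at 2.62, with the other 5 MII oocytes between 1.94 and 2.19, and had 132 CPM.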

How the results depend on the processing

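The median ratio of the 10 genes, 0.08, became −0.88 from totals with the unnamed feature and no centring, and stayed from −0.01 to 0.13 with any 1 oocyte left out. The median gene itself stood at −0.29, at −0.95 with the feature in the totals, at −0.09 under TMM and at −0.04 under median-of-ratios factors.

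The count of genes at least 2-fold lower, 0, became 5 with the feature and no centring, where the median gene itself stood at −0.95. It became 1, Actg1, without centring, with mean or median CPM, with thinned counts, at a filter of 20 CPM and with no filter. The count was also 1, Actg1, without MII5 and MII6, and against GV7 to GV9 alone, where 21.1% of all measured genes were lower. It was 0 to 1 with 1 oocyte left out, 1 without GV5 and without MII6. The count at least 2-fold higher, 2, became 0 without centring, with or without the feature, and without MII5 and MII6, where Cfl1 was at 0.52 and Spire2 at 0.87. It became 1 with median CPM, at a filter of 20 CPM, with no filter and against GV1 to GV6 alone, and was 1 to 2 with 1 oocyte left out, 1 without MII5 (Cfl1 at 0.83) and 1 without MII6 (Spire2 at 0.97). The count of genes whose stages did not overlap, 0, became 4 against GV7 to GV9 alone, where 20.6% of all measured genes were apart. It was 0 to 0 with 1 oocyte left out. The cause was not tested, except that centring and totals move all ratios by 1 constant.

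Of 493 ratios of single genes and list medians under these alternatives, 481 moved by less than the spread between oocytes, and 12 moved by more. That spread is wide, 0.54 to 1.55 for the 10 genes, and many alternatives left out only 1 oocyte. The 481 include Fmn2 going from −0.63 to −0.13 without GV2 and Cfl1 going from 1.23 to 0.52 without MII5 and MII6. The count therefore does not show that the ratios were stable. The sign differed from that of the reported value in 36 of the 493, 8 of them from totals with the feature and no centring, where Actr2 was at −0.65, Actr3 at −0.58 and Wasl at −0.47. Among the 10 genes it also differed for Spire1 (0.01) and Actb (0.21) against GV1 to GV6 alone and for Actb (0.03) with median CPM. None of the ratios with another sign belonged to a gene past 2-fold. No paired analysis was possible because no label ties a replicate number to a mouse, day or batch, so the numbers that MII and GV share pair no oocytes, and the results come from no test. Depth limits Actg1 most, with 134 MII counts.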
